A study of Rattus norvegicus with 8 samples.

Results

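The cervix of saline-treated, late-pregnant rats was described across genes from 4 RNA-seq libraries, which make up the whole PBS group among the 8 libraries of the series. The animals were wild-type Sprague-Dawley rats that received phosphate-buffered saline (PBS) into the peritoneal cavity on gestational day 17, and the cervix was taken 12 hours later. The other 4 libraries came from rats of the same stage given lipopolysaccharide (LPS), a component of the bacterial outer membrane, at 100 µg/kg in the same volume. All animals were therefore pregnant and injected, and an uninjected or non-pregnant cervix was not analysed here. The members were chosen by their group label alone, and no PBS library was compared with an LPS library. The series text calls the 4 libraries biological replicates and does not say whether each came from 1 animal or from a pool.

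The cervix is the lower end of the uterus. Its outer part carries a stratified squamous epithelium, its canal is lined by mucus-secreting columnar cells, and the wall beneath is a collagen-rich stroma with fibroblasts, vessels, nerves, resident leukocytes and smooth muscle that thickens towards the uterine body. During pregnancy the canal is closed by a mucus plug, and the stroma is remodelled from a stiff to a soft tissue before labour under the control of progesterone, oestrogen and relaxin. A piece of cervix is a bulk sample, so fewer cells of a type and less RNA per cell cannot be told apart in any of the levels that follow.

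The 4 libraries held 33191039 to 40634384 counts, and 21824 of the 29884 gene symbols in the table had at least 1 count. Levels are given as CPM, a gene's counts divided by the library's total in units of 1000000, scaled between the 4 libraries with TMM factors (a trimmed mean of log ratios), and values are listed in the order of replicates 1 to 4. A gene was called measured when it reached 1 CPM in all 4 libraries, which 13509 genes did. Up to 3 counts in a library, 0.0739 to 0.0895 CPM, were read as the floor of detection. Transcript lengths were not used, and long transcripts gather more reads, so a share of counts is not a ranking of transcript numbers between genes. No pair of libraries looked like 2 copies of 1 library: the chi-square of the raw counts per degree of freedom was 54.1 to 166 over the 6 pairs, where sampling noise alone gives about 1.

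Mucus, mitochondrial, matrix and keratin transcripts were prominent among the largest shares of counts. The 10 genes with the largest shares of counts together held 9.28% ± 0.304 (SD, n = 4) of each library, the top 100 held 23.6% ± 1.23, and the top 500 held 41.8% ± 1.17. Among them were 6 transcripts of the mitochondrial genome, led by COX1, a subunit of cytochrome c oxidase, at 2.20% ± 0.304. The 13 protein-coding mitochondrial transcripts took 7.75%, 7.15%, 5.90% and 5.69% of the counts, so their share was largest in replicate 1 and smallest in replicate 4. The 99 ribosomal protein genes, recognised by symbol, held 4.59% ± 0.365.

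Muc5b, the large gel-forming mucin of cervical mucus, had the largest share of any nuclear gene, at 1.84% ± 0.459 of counts. Its levels were 13064, 17507, 23266 and 19658 CPM, lowest in replicate 1 and highest in replicate 3. Clca1, a secreted protein that binds and processes mucins, followed the same order at 6794, 7390, 10762 and 8984 CPM. Fcgbp, which cross-links into mucus gels, was at 2884, 4279, 5464 and 5277 CPM. Together these 3 genes held 3.14% ± 0.767 of counts, with 2.22% in replicate 1 and 4.03% in replicate 3. Replicate 1 was lowest for all 3.

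The remaining nuclear genes among the 40 with the largest shares fell into a few groups, shown in the plot of the top genes. Stromal matrix was represented by Col1a1, Col3a1, Col1a2, Sparc, Col6a1 and Col6a2, and smooth muscle by Tagln, Actg2, Myh11 and Flna. The keratins of basal and stratified epithelium Krt5, Krt15 and Krt13 were there, with Tmprss11a, a membrane-bound serine protease, at 1415, 2328, 1773 and 2322 CPM. Housekeeping genes were the steadiest of this group. Eef1a1, which delivers aminoacyl-tRNA to the ribosome, was at 6224, 6252, 6043 and 6566 CPM, and Tmsb4x, an actin-binding peptide, was at 2304, 2155, 2255 and 2354 CPM.

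**Figure D1:**
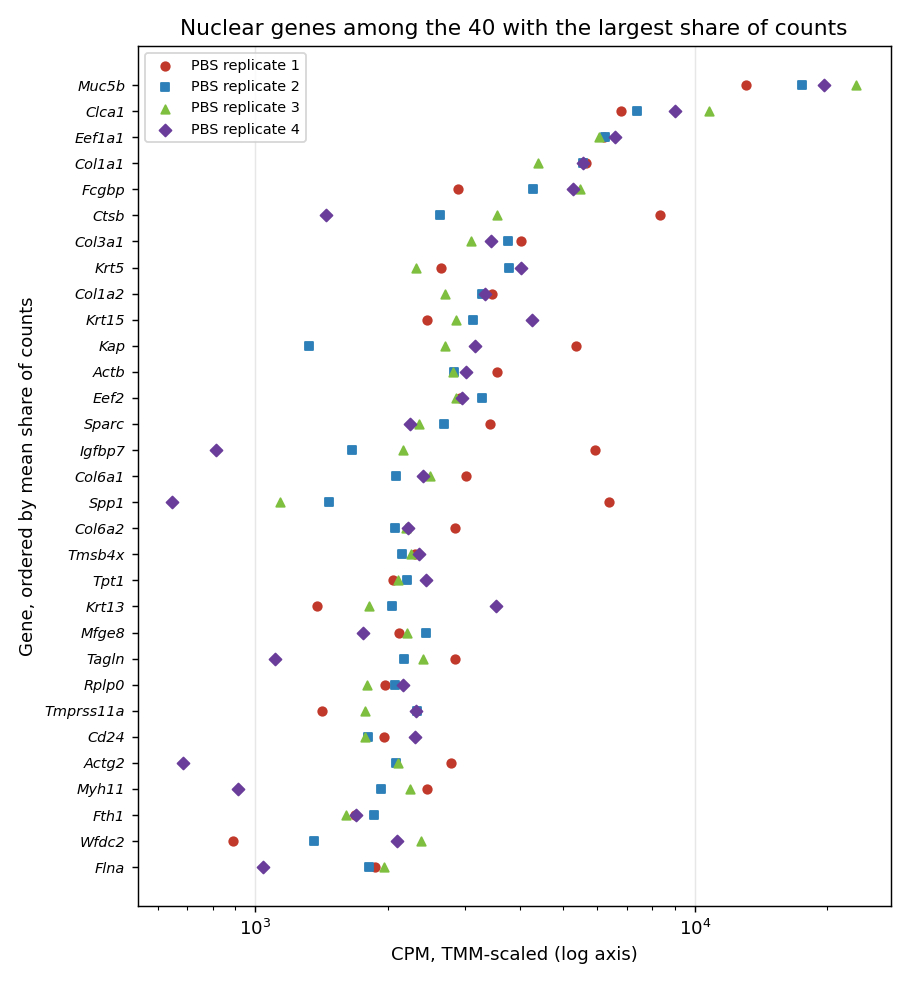
Levels of the nuclear genes among the 40 genes with the largest mean share of counts, with TMM-scaled CPM on a log axis and 1 symbol for each of the 4 PBS libraries. Muc5b sits furthest right in every library, with Clca1 next in replicates 2 to 4 and Ctsb next in replicate 1, while Ctsb, Igfbp7 and Spp1 spread most widely, with replicate 1 highest and replicate 4 lowest.

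Of the 40 most abundant genes, Ctsb, Igfbp7, Spp1 and Kap varied most between the libraries. Ctsb, the lysosomal protease cathepsin B, was at 8339, 2625, 3547 and 1447 CPM. Spp1, the secreted phosphoprotein osteopontin, was at 6376, 1467, 1135 and 646.5 CPM. Igfbp7, a secreted binding protein for insulin-like growth factors, was at 5932, 1656, 2168 and 812.1 CPM. Replicate 1 stood above the other 3 libraries for each of them, by more than 2-fold, and replicate 4 was lowest. Kap, the kidney androgen-regulated protein, was at 5373, 1324, 2698 and 3151 CPM and so was highest in replicate 1 but lowest in replicate 2. Without replicate 1, the mean of Spp1 fell from 2406 to 1083 CPM, that of Igfbp7 from 2642 to 1545 CPM, and that of Ctsb from 3990 to 2540 CPM.

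Most genes were far steadier than these. The coefficient of variation (CV, the SD divided by the mean over the 4 libraries) had a median of 11.8% over the 13509 measured genes, with a 5th percentile of 3.32% and a 95th of 41.9%. It was under 10% for 5541 genes, over 50% for 393 genes (2.91%) and over 100% for 31. The common biological coefficient of variation, edgeR's estimate of the spread beyond counting noise, was 20.6%. Spread depended on level: the median CV was 20.5% for genes with a mean of 1 to 10 CPM, 10.1% for those of 10 to 100 CPM and 9.56% for those of 100 to 1000 CPM. In the 73 genes of 1000 CPM or more it was again higher, at 16.4%, although counting noise alone would give 0.367% there.

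**Figure D2:**
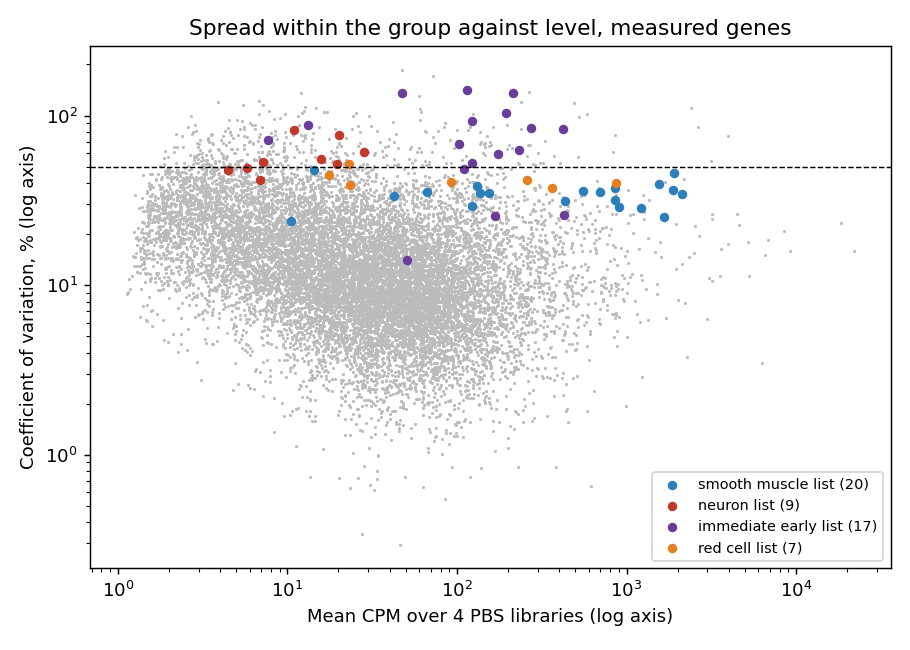
Coefficient of variation over the 4 PBS libraries against mean level for each of the 13509 measured genes (grey, both axes logarithmic), with the measured members of 4 lists in colour and a dashed line at 50%. Of the immediate early list, 13 of 17 members lie above the line, whereas no smooth muscle gene does.

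Arf1, a small GTPase of vesicle traffic, was the steadiest gene among those with a mean of at least 100 CPM. It was at 612, 617, 608 and 616 CPM, a CV of 0.657%. Rnps1, an RNA-binding protein of the exon junction complex, was at 119, 119, 117.5 and 119.5 CPM, and Hadha, an enzyme of mitochondrial fatty acid oxidation, was at 138, 138, 141 and 139 CPM. The rest of the 10 lowest were C17h6orf62, Rab1a, Pigt, Uggt1, Ctbp1, Hcfc1 and Fyttd1, with CVs up to 1.29%.

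The spread was not shared evenly between libraries. A library was said to stand apart for a gene when it was at least 1.5 times above the highest, or below the lowest, of the other 3. Replicate 1 stood above for 377 measured genes (2.79%) and below for 212 (1.57%). Replicate 2 stood above for 64 (0.474%) and below for 92 (0.681%), and replicate 3 above for 95 (0.703%) and below for 142 (1.05%). Replicate 4 stood above for 139 genes (1.03%) and below for 426 (3.15%). The largest counts were therefore genes high in replicate 1 and genes low in replicate 4, and replicate 2 stood apart least.

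**Figure D3:**
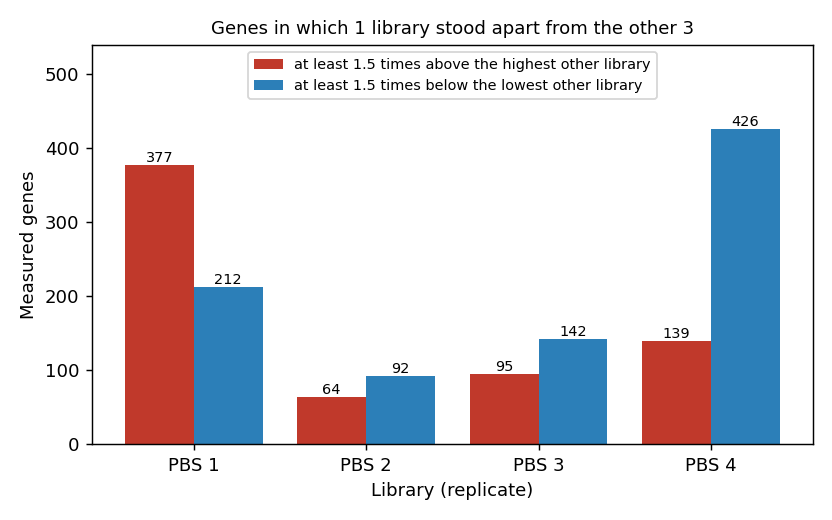
Number of measured genes (vertical axis) in which each PBS library (horizontal axis) lay at least 1.5 times above the highest other library (red) or at least 1.5 times below the lowest other library (blue). The tallest bars are the 426 genes low in replicate 4 and the 377 genes high in replicate 1.

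Pairs of libraries correlated at 0.961 to 0.982 across measured genes on the log2 scale, which is a description across genes and not across samples. The pair of replicates 1 and 4 was the least alike and the pair of 2 and 3 the most alike. In a principal component analysis of the 500 most variable measured genes, component 1 held 55.2% of the variance and placed the libraries at 20.96, -2.99, 2.21 and -20.18, with replicates 1 and 4 at its ends. Component 2 held 26.4% and set replicate 3 apart (-17.5), and component 3 held 18.3% and set replicate 2 apart (-13.6).

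Nearly all markers of the columnar epithelium of the canal were measured. Of the 30 genes in the columnar and glandular list, 27 were measured, including all 6 defining markers, and the list held 2.24%, 3.01%, 3.81% and 3.50% of counts. Of the keratin pair of simple epithelium, Krt8 was at 1083, 1279, 969.6 and 1403 CPM and Krt18 at 403, 506, 481 and 547 CPM. Their CVs were 16.4% and 12.5%, beside a median of 11.84% over all measured genes. Epcam, the epithelial adhesion molecule, was at 454, 565, 567 and 588 CPM, lowest in replicate 1. Of the 27 measured members 2 had a CV over 50%, beside 2.91% of all measured genes. Replicate 1 was lowest for 16 of the 27, and replicate 4 was highest for 15. Over all 13509 measured genes the libraries were not equally often at an end: replicates 1 to 4 were lowest for 31.2%, 20.9%, 20.7% and 27.2% and highest for 30.2%, 20.1%, 19.9% and 29.8%.

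The secretory programme went beyond the 3 abundant mucus genes. Muc4, a membrane-bound mucin, was at 729, 955, 1279 and 1129 CPM, in the order seen for Muc5b. Spdef, the transcription factor that drives goblet cell fate, was at 95.9, 139.5, 220.5 and 176.5 CPM, again lowest in replicate 1 and highest in replicate 3. Wfdc2, a secreted protease inhibitor of tract epithelia, followed at 891, 1357, 2377 and 2098 CPM. By contrast, the second gel-forming mucin, Muc5ac, was at 4.16, 3.44, 8.18 and 16.5 CPM, with the highest CV among the measured members of the list (74.5%), and its high library was replicate 4. Pigr, the receptor that carries dimeric IgA across epithelium, was at 317, 164, 534 and 222 CPM, high in replicates 1 and 3. The surface mucin Muc16 (at most 0.586 CPM), Bpifb1 and the factor Foxa1 did not reach 1 CPM in any library.

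Squamous markers of basal and middle layers were measured, while the listed genes of the cornified surface ran from the floor to over 100 CPM. Of the 26 listed genes 19 were measured, and the list held 0.851%, 1.21%, 0.910% and 1.55% of counts. Krt5, a keratin of basal cells, was at 2647, 3775, 2319 and 4029 CPM. Its partner Krt14 was at 664, 988, 498 and 904.5 CPM, and Tp63, the master transcription factor of stratified epithelium, was at 75.2, 121, 65.9 and 108 CPM. In these 3 genes replicates 2 and 4 were above replicates 1 and 3. That order was seen in the values, and its share over all genes was not counted. Sbsn and Sfn, also listed, did not have it. Krt15 was at 2458, 3128, 2860 and 4265 CPM and Krt13, a keratin of non-cornified suprabasal cells, at 1380, 2047, 1817 and 3520 CPM, both highest in replicate 4.

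Of the 19 measured squamous genes 14 were highest in replicate 4, beside 29.8% of all measured genes, and 11 were lowest in replicate 3, beside 20.7%. The median ratio of a member to its own mean was 0.795, 1.12, 0.756 and 1.32 over the libraries. The fifth defining marker, Krt4, another keratin of suprabasal mucosa, was at 2.27 CPM in replicate 4 and at no more than 0.148 CPM elsewhere. Ivl, Loricrin and Krtdap, which build the cornified envelope of skin, were at or under 3 counts in all 4 libraries. Sprr1a, another precursor of that envelope, was at 70.96, 113, 70.6 and 147 CPM. Krt1 and Krt10, the keratin pair of cornifying layers, were low but measured, at 3.80, 5.49, 6.21 and 12.0 CPM and at 2.35, 2.15, 1.92 and 2.89 CPM. Sbsn, a secreted product of stratified epithelium, was the most variable measured member at 2.65, 12.0, 4.09 and 1.46 CPM, and its high library was replicate 2. Sfn, an adaptor protein of epithelial cells, was at 107, 99.6, 90.0 and 288 CPM, so replicate 4 stood well above.

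Other epithelia were thinly represented. Upk1a and Upk1b, plaque proteins of the bladder lining, were measured (Upk1b at 83.9, 118, 195 and 197 CPM), but Upk2, a defining marker of that lining, was at the floor in all libraries and Upk3a at no more than 1.21 CPM. Foxj1, the switch for motile cilia, was at 5.71, 5.36, 7.98 and 19.3 CPM. Dnah5 and Tekt1, structural proteins of the moving cilium, stayed under 1 CPM in every library. Msln, a surface protein of the serosal lining that some tract epithelia also make, was at 260, 268, 416 and 386 CPM. The other defining markers of the serosa were low: Upk3b was at 5.58 CPM in replicate 1 and at most 1.38 CPM elsewhere, and Lrrn4 at 3.90 CPM in replicate 1 and at most 0.388 CPM elsewhere.

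The fibroblast list held an even share of counts, at 2.39%, 2.22%, 1.98% and 2.19%, a CV of the share of 7.56%. All 25 genes of the list were measured, and none had a CV over 50%, beside 2.91% of all measured genes. Their median CV was 17.75%, beside 11.84% over all measured genes. Dcn, the small proteoglycan decorin that binds collagen fibrils, was at 1241, 1281, 1253 and 1194 CPM, a CV of 2.89%. Col1a1, a chain of the main fibrillar collagen, was at 5636, 5559, 4394 and 5575 CPM. Col3a1, the collagen of finer and more extensible fibrils, was at 4025, 3755, 3092 and 3438 CPM. In both collagens replicate 3 was lowest, as it was for 15 of the 25 fibroblast genes, beside 20.7% of all measured genes. Pdgfra, the growth factor receptor that marks fibroblasts, was at 301.3, 213, 255 and 195.5 CPM, and Clec3b was the most variable member at 59.9, 61.1, 24.9 and 39.5 CPM.

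All 35 genes of the collagen and matrix assembly list were measured, none with a CV over 50%, and they held 3.05% ± 0.303 of counts. Their median CV was 19.98%, beside 11.84% over all measured genes. The basement membrane collagen chains were less even than the fibrillar ones. Col4a1 was at 1450, 940, 1113 and 563 CPM and its partner Col4a2 at 991, 645, 743 and 369 CPM, both highest in replicate 1 and lowest in replicate 4. Col18a1, a collagen of epithelial and vascular basement membranes, had the same ends at 442, 260, 266 and 187 CPM, and Col6a3, a chain of the beaded-filament collagen, was at 1870, 1110, 1124 and 904 CPM. Col12a1, which decorates fibril surfaces, ran in another order at 459.5, 633, 326 and 730 CPM. Fn1, fibronectin, was at 1612, 1412, 1660 and 733 CPM, so replicate 4 lay well below the other 3.

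Elastic fibre and cross-linking genes were all measured. Eln, elastin, was at 265.5, 308, 220 and 312 CPM and Fbn1, the fibrillin of its scaffold, at 372, 431, 226 and 280.5 CPM, with replicate 3 lowest for both. Lox, the enzyme that cross-links collagen and elastin, was at 49.0, 62.6, 33.3 and 60.5 CPM, and Loxl2, a related enzyme, at 143, 126, 101 and 67.6 CPM. Serpinh1, the collagen chaperone, was at 661, 520, 435 and 548 CPM. Among the matricellular proteins, Thbs2, a thrombospondin, was at 68.2, 111, 82.6 and 141 CPM, and Tnc, tenascin C, at 24.1, 46.5, 30.0 and 24.1 CPM. Vcan, the large hyaluronan-binding proteoglycan, was at 121, 102, 107 and 134 CPM.

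Enzymes that turn the matrix over differed widely in how much was detected. Mmp2 and its activator Mmp14, both metalloproteinases of stromal cells, were at 708, 584, 788 and 574 CPM and at 264, 246, 288 and 246 CPM. Mmp9, a neutrophil-associated gelatinase, was at no more than 0.597 CPM, Mmp8, the neutrophil collagenase, at no more than 1.16 CPM, and Mmp13, another collagenase, at or under the floor in all libraries. The inhibitors Timp2 (822, 800, 928 and 656 CPM), Timp3 (246, 194, 180 and 166 CPM) and Timp1 (96.7, 96.8, 115.5 and 87.7 CPM) were all measured. Mmp3, a stromelysin, had the highest CV among the measured members of the list, at 4.66, 1.09, 6.97 and 1.55 CPM. The list as a whole held 1.19%, 0.636%, 0.785% and 0.504% of counts, of which Ctsb alone held 0.814%, 0.261%, 0.3615% and 0.146%.

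Hyaluronan synthases, their partner proteins and hyaluronidases were all detected. Has2, the main hyaluronan synthase of the pregnant cervix, was at 5.17, 5.63, 4.01 and 5.28 CPM, Has3 was at 8.18, 6.33, 9.88 and 12.3 CPM, and Has1 was at no more than 3.21 CPM. Tnfaip6, which transfers heavy chains onto hyaluronan, was at 831, 845.5, 954 and 841 CPM, a CV of 6.66%. The hyaluronidases Hyal1 (249, 381, 232 and 344 CPM) and Hyal2 (95.8, 105, 85.5 and 112 CPM) and the receptor Cd44 (91.9, 106, 112 and 126 CPM) were measured in every library. These are levels of different genes on a scale that is not per length, so no order between them is given.

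Smooth muscle was abundant in 3 libraries and lower in the fourth. The list held 1.93%, 1.64%, 1.78% and 0.785% of counts. Myh11, the smooth muscle myosin heavy chain, was at 2454, 1932, 2250 and 912 CPM. Actg2, the enteric and uterine smooth muscle actin, was at 2787, 2090, 2106 and 683 CPM, and Des, the intermediate filament desmin, was at 1867, 1761, 1972 and 652 CPM. In each of these genes the first 3 libraries lay together and replicate 4 well below them.

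That pattern held for the list: all 20 genes were measured, all 20 were lowest in replicate 4, beside 27.2% of all measured genes, and in 19 of them replicate 4 stood apart, beside 3.15%. The exception was Casq2, a calcium-binding protein of the reticulum, at 10.99, 13.2, 10.4 and 7.13 CPM. Acta2, the actin that myofibroblasts and pericytes also make, was at 1520, 1416, 1155 and 745 CPM. Myocd, the coactivator that switches on contractile genes, was the most variable member at 22.3, 13.3, 15.8 and 5.85 CPM. The median ratio to a gene's own mean was 1.25, 1.06, 1.13 and 0.522. Squamous markers were highest in replicate 4, where their median ratio was 1.32, and pericyte markers were lowest there, at 0.630. The part of these in the muscle difference was not tested.

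**Figure D4:**
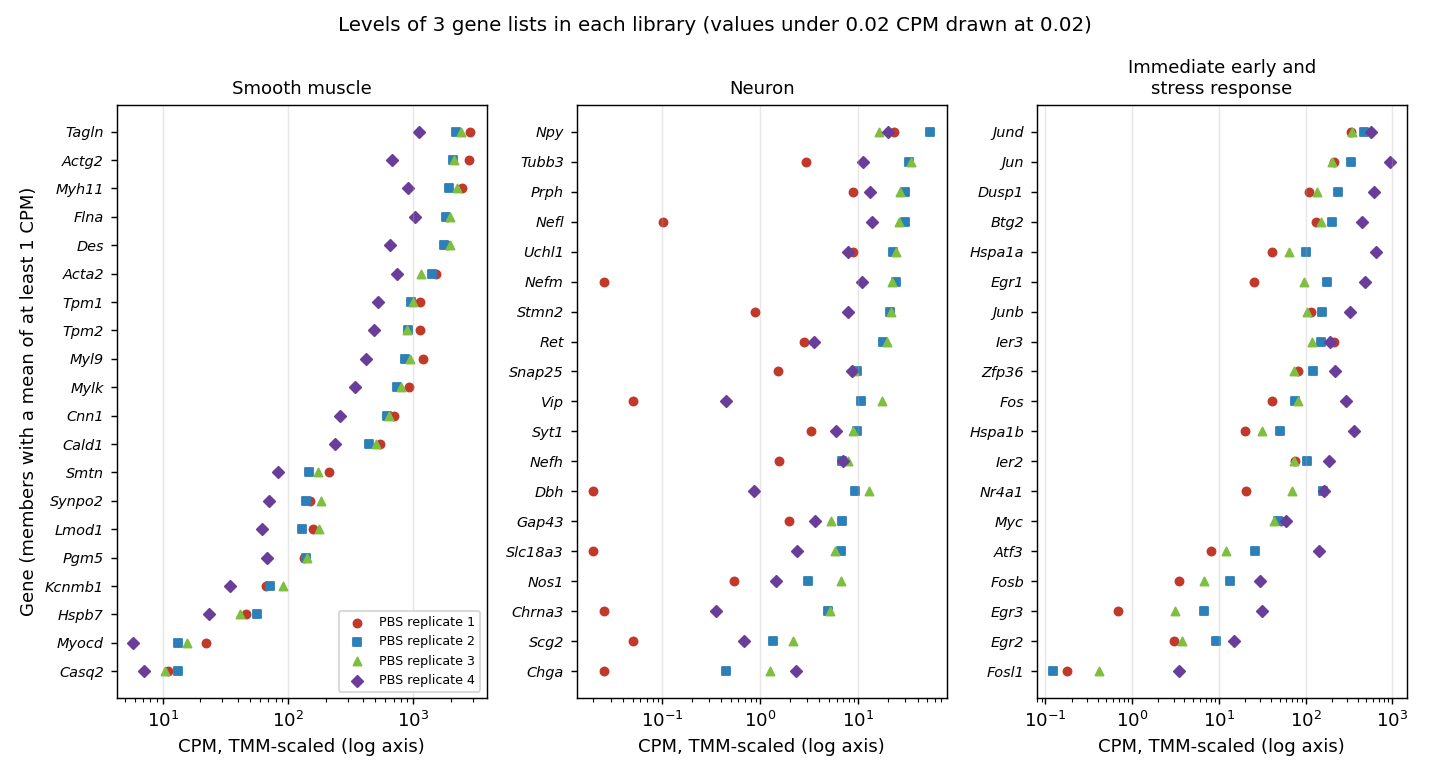
Levels in each PBS library of the members of 3 gene lists with a mean of at least 1 CPM, as TMM-scaled CPM on log axes, 1 symbol per library. Replicate 4 lies to the left for smooth muscle genes and to the right for immediate early genes, and replicate 1 lies far to the left for most neuronal genes.

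Defining markers of skeletal muscle were at or near the floor, apart from Acta1 and a low Tnnt3 (2.56 to 6.04 CPM). The myosins of striated fibres Myh1, Myh2, Myh4 and Myh7 were at or under the floor in all 4 libraries, with Myh7 at 0 counts, and Ckm, muscle creatine kinase, was at no more than 0.408 CPM. Acta1, the skeletal actin, was nevertheless at 253, 254, 167 and 63.6 CPM, lowest in replicate 4 like the smooth muscle genes. The actins share long coding stretches, and the counting of reads that fit several genes was not stated, so the level of Acta1 is uncertain.

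Blood endothelium was present in all libraries, with most of its genes highest in replicate 1 and lowest in replicate 4. All 19 listed genes were measured. Of these 18 were highest in replicate 1, beside 30.2% of all measured genes, and 16 were lowest in replicate 4, beside 27.2%. Replicate 1 stood apart above for 3 genes, beside 2.79%, and replicate 4 stood apart below for 1, beside 3.15%. Pecam1, an endothelial junction protein, was at 251, 180.5, 147 and 117.5 CPM, and Cdh5, the endothelial cadherin, at 150, 89.2, 86.6 and 55.7 CPM. Plvap, which forms the diaphragms of permeable capillaries and venules, was at 460, 309, 213 and 154 CPM. The 1 gene not highest in replicate 1 was Vwf, the clotting factor stored in endothelium, at 37.0, 73.1, 17.96 and 23.3 CPM, for which replicate 2 was high. The list held 0.195%, 0.149%, 0.114% and 0.0905% of counts.

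Cells of the vessel wall followed the endothelium. All 7 pericyte genes were measured and lowest in replicate 4, beside 27.2% of all measured genes, and 5 were highest in replicate 1, beside 30.2%. Rgs5, a regulator of G-protein signalling in pericytes, was at 87.5, 54.9, 49.7 and 37.1 CPM. Kcnj8, a potassium channel pore subunit, was at 42.2, 26.0, 24.1 and 11.6 CPM and its partner Abcc9 at 62.2, 44.5, 40.03 and 24.1 CPM. Lymphatic endothelium was harder to see: Lyve1 was at 36.2, 31.9, 23.2 and 24.0 CPM and Flt4 at 19.8, 9.94, 8.18 and 7.73 CPM, but Prox1, the transcription factor that defines it, did not reach 1 CPM in any library (0.561 to 0.985 CPM). Lyve1 is also made by macrophages and Flt4 by some blood vessels. Ccl21, the lymphatic chemokine, was at 33.2, 36.9, 20.1 and 47.8 CPM and Pdpn at 32.6 to 38.05 CPM.

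Transcripts of red cells were present in every library and lowest in replicate 3. Hba-a1, an alpha globin, was at 1213, 923, 383 and 970 CPM, Hbb, a beta globin, at 369, 250, 113 and 300.7 CPM, and Alas2, the haem-synthesis enzyme of red cell precursors, at 26.6, 17.3, 7.59 and 19.3 CPM. All 7 measured members were highest in replicate 1, beside 30.2% of all measured genes. Replicate 3 stood apart below for all 7, beside 1.05%. The globin genes are near-identical copies, so their single levels are uncertain. The list's share of counts (0.226%, 0.170%, 0.0759% and 0.186%) does not depend on how counted reads were split among them. It would still miss reads left out for fitting several genes, and whether any were left out was not stated. Red cell transcripts did not follow the endothelial order, in which replicate 4 was lowest.

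Neuronal transcripts were low in replicate 1. Nefl, the light neurofilament chain, was at 0.102, 29.5, 25.6 and 13.7 CPM, which is 4 counts in replicate 1. Tubb3, a neuronal tubulin, was at 2.93, 32.6, 34.0 and 11.04 CPM, Stmn2, a growth-associated protein of axons, at 0.892, 20.9, 21.6 and 7.91 CPM, and Prph, the filament peripherin of peripheral neurons, at 8.87, 29.9, 26.4 and 13.1 CPM. For each, replicates 2 and 3 were alike, replicate 4 lower and replicate 1 lowest. The list held 0.00549%, 0.0303%, 0.0282% and 0.0124% of counts.

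Because replicate 1 was so low, only 9 of the 25 neuronal genes were measured by the rule of 1 CPM in all libraries, and counts over them would leave out the genes that replicate 1 lacked. Of the 19 members with a mean of at least 1 CPM, 17 were lowest in replicate 1, beside 4418 of the 14240 genes of that mean, and in 15 it stood apart below, beside 2.34% of them. Several are products of autonomic ganglion cells. Dbh, the enzyme that makes noradrenaline, was at 0, 9.19, 12.8 and 0.865 CPM, Vip, a vasodilator peptide of parasympathetic neurons, at 0.0510, 10.7, 17.5 and 0.448 CPM, and Slc18a3, the vesicular acetylcholine transporter, at 0, 6.65, 5.76 and 2.39 CPM. Chrna3, the receptor subunit of ganglionic transmission, was at 0.0255, 4.87, 5.15 and 0.358 CPM, and Ret, the receptor for glial-derived neurotrophic factors, at 2.80, 17.7, 19.5 and 3.55 CPM.

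Th, the first enzyme of noradrenaline synthesis, was low throughout, at 0, 0.346, 1.11 and 0.298 CPM, and Npy, a peptide of sympathetic nerves, had its own order at 22.8, 53.5, 16.2 and 19.9 CPM. Genes of the glia of nerve trunks were measured in replicate 1, though many were lowest there. Mbp, a myelin protein, was at 26.2, 37.4, 27.6 and 39.6 CPM. Sox10, the transcription factor of Schwann cells, was at 3.75, 5.93, 4.83 and 6.47 CPM. The Schwann cell list held 0.0592%, 0.0746%, 0.0659% and 0.0845% of counts. Of its 13 genes 12 were measured and none of these had a CV over 50%, beside 2.91% of all measured genes. Replicate 1 was lowest for 6 of the 12, beside 31.2% of all measured genes, and replicate 4 highest for 7, beside 29.8%. Cdh19, a cadherin of Schwann cells and their precursors, was the gene for which replicate 1 stood apart below, at 3.08, 6.55, 6.53 and 7.94 CPM. Ngfr, the low-affinity neurotrophin receptor of glia and basal epithelium, was at 119, 144, 187 and 299 CPM.

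Macrophage genes were the most fully measured of the leukocyte lists. Of the 19 listed genes 17 were measured, with all 5 defining markers, and the list held 0.143%, 0.111%, 0.114% and 0.0960% of counts. Csf1r, the receptor for the macrophage growth factor, was at 172, 121, 106 and 98.6 CPM, Mrc1, the mannose receptor of resident macrophages, at 105, 75.8, 60.8 and 64.0 CPM, and Cd163, the haemoglobin scavenger receptor, at 53.0, 36.9, 34.2 and 36.5 CPM. Lyz2, lysozyme, was at 419.5, 287, 304 and 188 CPM and C1qa, a complement subunit, at 145, 110, 113 and 88.5 CPM. Replicate 1 was highest for 13 of the 17 measured genes, beside 30.2% of all measured genes, yet Cd68, a lysosomal marker, ran the other way at 48.0, 50.6, 63.2 and 62.7 CPM. Marco, a receptor of alveolar and splenic macrophages, had 0 counts in every library.

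Genes of antigen presentation were also plentiful. Cd74, the chaperone of class II molecules, was at 384, 447, 515 and 407 CPM, and the class II chain RT1-Da was at 116, 135, 165 and 129 CPM. The defining dendritic cell markers were far lower: Flt3 was at 2.40, 2.60, 6.13 and 4.39 CPM, Clec9a at 1.05 to 2.73 CPM, Xcr1 at 0.667 to 1.28 CPM, and Ccr7 under 1 CPM in every library. Of the 8 measured members 7 were highest in replicate 3, beside 19.9% of all measured genes. Macrophages and B cells make class II molecules as well, so the list's share of counts (0.0629% ± 0.00939) is mostly the level of genes that are not particular to dendritic cells.

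Markers of granulocytes and lymphocytes were low in this saline baseline. The neutrophil list held 0.00474% ± 0.00123 of counts: S100a8 and S100a9, the calprotectin pair, were at 4.03, 3.31, 6.58 and 7.76 CPM and at 14.2, 10.3, 18.6 and 17.8 CPM. The receptors Csf3r (9.76, 13.2, 20.4 and 14.7 CPM) and Cxcr2 (7.26, 5.78, 6.16 and 10.4 CPM) were among the 5 measured of 12 listed genes. The granule genes Elane, Camp, Ngp and Ltf were at or near the floor, with Ltf at 0 counts. Mpo, another granule gene, was at 1.835, 0.915, 0.123 and 0.895 CPM. The eosinophil peroxidase Epx had 0 counts, and Prg2 was at no more than 0.148 CPM. Ccr3, the eosinophil chemokine receptor, reached 1.82 CPM in replicate 4.

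None of the 5 defining markers of T and NK cells was measured, while 4 of the 18 listed genes were. Cd3e, a chain of the T cell receptor complex, was at 1.89, 0.964, 2.64 and 1.61 CPM, and Ncr1, a receptor of NK cells, at no more than 0.370 CPM. Cd4, which rat macrophages also carry, was at 124, 81.8, 104 and 71.5 CPM and made up most of the list's share of counts (0.0116% ± 0.00272). No gene of the B and plasma cell list was measured: Ms4a1 was at the floor throughout, Cd79a was at 2.85, 0.766, 1.13 and 0.627 CPM, and Jchain, the joining chain of secreted IgA and IgM, was at 0.816, 2.10, 3.45 and 9.01 CPM. Cpa3, a protease of mast cell granules, was at 3.44, 3.68, 1.68 and 3.10 CPM. The higher level of Kit (50.6, 63.8, 102 and 94.0 CPM) is not particular to mast cells, since epithelial and interstitial cells can carry this receptor.

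Fat and placenta were checked as neighbouring tissues. Adipoq, the adipocyte hormone adiponectin, was at 282.5, 130, 55.6 and 107 CPM, Plin1, the coat protein of lipid droplets, at 22.5, 18.4, 1.503 and 15.6 CPM, and Fabp4, a fatty acid carrier of adipocytes and capillaries, at 166, 128, 31.1 and 59.7 CPM. All 5 measured adipocyte genes were lowest in replicate 3, beside 20.7% of all measured genes. That library stood apart below for each of them, beside 1.05%, as it did for the red cell genes. Ucp1, the uncoupling protein of brown fat, was at the floor. All 8 placental and decidual genes with a row in the table, among them the prolactin family members Prl3b1 and Prl8a2 and the trophoblast gene Tpbpa, were at or under the floor in every library.

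Genes of cell division were detected in all libraries. All 16 genes of the dividing cell list were measured and none had a CV over 50%, beside 2.91% of all measured genes. Their median CV was 17.98%, beside 11.84% over all measured genes. The median ratio of a member to its own mean was 0.977, 0.782, 1.04 and 1.16. Mki67, the proliferation antigen, was at 35.2, 25.9, 37.2 and 40.2 CPM, Top2a, the topoisomerase of replicating cells, was at 34.2, 27.1, 34.3 and 42.5 CPM, and Cdk1, the mitotic kinase, was at 12.8, 9.47, 14.1 and 16.1 CPM. Replicate 2 was lowest for 15 of the 16 genes, beside 20.9% of all measured genes, and replicate 4 highest for 11, beside 29.8%. Replicate 2 stood apart below for none of them.

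Steroid receptor genes were among the steady genes of this tissue. Pgr, the progesterone receptor, was at 105, 118, 111 and 112 CPM, a CV of 4.67%. Esr1, oestrogen receptor alpha, was at 287, 300.4, 353 and 281 CPM, and Nr3c1, the glucocorticoid receptor, was at 79.4, 84.9, 76.7 and 84.3 CPM. Esr2, the beta form of the oestrogen receptor, had 2 counts in replicate 2 and 0 in the others. Nr3c2, the mineralocorticoid receptor, was at 7.34, 10.6, 13.3 and 9.73 CPM. Rxfp1, the relaxin receptor, was at 68.7, 55.4, 36.6 and 54.5 CPM, while its ligand Rln1, which the rat ovary makes, was near or at the floor.

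Of the measured enzymes that handle steroids, Hsd11b1 varied most. Hsd11b1, which regenerates active glucocorticoid, was at 368, 117, 112 and 53.7 CPM and was the only measured gene of the list with a CV over 50% (86.1%). Without replicate 1 its mean fell from 163 to 94.1 CPM. Hsd11b2, which inactivates glucocorticoid, was at 482, 297, 273.5 and 344 CPM, also highest in replicate 1. Srd5a1, a 5-alpha reductase that acts on progesterone in the cervix, was at 21.1, 12.2, 20.8 and 16.6 CPM. Hsd17b2, Srd5a2 and Akr1c3 stayed low, with no library above 1.17 CPM. Fkbp5, a glucocorticoid- and progesterone-responsive gene, was at 109.5, 163, 115 and 148 CPM.

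Genes of contraction and prostaglandin signalling were measured in 21 of 24 cases. Of the 21, 2 had a CV over 50%, beside 2.91% of all measured genes. Oxtr, the oxytocin receptor, was at 26.4, 10.3, 17.7 and 15.3 CPM, highest in replicate 1. Gja1, the gap junction protein connexin 43, was at 51.6, 43.5, 74.7 and 54.0 CPM. Among the prostaglandin enzymes, Ptgs1 was at 57.6, 54.7, 45.6 and 28.5 CPM, the inducible Ptgs2 at 20.7, 9.74, 18.8 and 37.1 CPM, and Ptges at 22.1, 39.7, 14.4 and 43.2 CPM. Hpgd, which degrades prostaglandins, was at 87.6, 67.4, 146 and 98.6 CPM. Ptgis, the prostacyclin synthase of vessels and smooth muscle, was at 65.2, 54.8, 55.4 and 23.4 CPM, with the low replicate 4 of the muscle genes.

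Receptors for prostaglandins differed in steadiness. Ptger4 was at 23.6, 27.5, 29.7 and 28.1 CPM, a CV of 9.53%, and Ptger3, a smooth muscle receptor, was at 25.7, 18.2, 24.7 and 7.997 CPM, low in replicate 4. Ptger2 was at 5.33, 2.27, 2.29 and 2.03 CPM and stood apart above in replicate 1, and Ptgfr, the receptor for prostaglandin F2-alpha, was at 2.40, 2.32, 5.12 and 2.60 CPM and did so in replicate 3. Of the endothelin receptors, Ednra was at 55.7, 65.6, 47.8 and 47.4 CPM and Ednrb at 33.9, 23.4, 20.8 and 18.4 CPM. The muscarinic receptor Chrm2 was under 2 CPM in every library.

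Hox genes, which set position along the female tract, were examined because the wall changes in make-up from the uterine body to the vagina. Hoxa13, the gene of the lower tract, was at 10.6, 14.7, 10.6 and 12.2 CPM, and Hoxd13 was at 2.32, 3.39, 2.61 and 3.85 CPM. Hoxa10 and Hoxa11, known for the uterus, were at 58.4, 39.2, 38.8 and 25.2 CPM and at 54.9, 29.9, 37.2 and 21.1 CPM. Hoxd9 was at 20.1, 6.57, 8.77 and 3.49 CPM, Hoxd10 at 5.68, 1.31, 2.88 and 1.07 CPM, and Hoxa9 at 15.8, 8.601, 6.50 and 6.83 CPM. The 9 to 11 paralogs just named were thus highest in replicate 1, and all but Hoxa9 were lowest in replicate 4, while the 13 paralogs were not highest there.

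Of the 32 genes in the Hox and patterning list 17 were measured, and replicate 1 stood apart above for 4 of them, beside 2.79% of all measured genes. Replicate 4 stood apart below for 3 of them, beside 3.15%. Hoxb6 (36.7, 38.6, 41.6 and 41.2 CPM), Hoxb7 (29.2, 34.1, 39.0 and 36.6 CPM) and Emx2, a tract patterning factor (98.8, 111, 97.9 and 139.5 CPM), did not follow that order. Hoxb13, Hoxc12 and Hoxc13 had 0 counts in all 4 libraries. Smooth muscle and endothelial lists were also highest in replicate 1 by their median ratio (1.25 and 1.45), and their part in the Hox order was not tested.

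Immediate early genes, which cells switch on within minutes of a stimulus, had the highest median CV of the lists (71.8%). The list also held the heat shock genes Hspa1a and Hspa1b. Fos, a subunit of the AP-1 factor, was at 40.9, 75.7, 82.4 and 292 CPM. Egr1, a zinc finger factor induced through serum response factor, was at 25.1, 176, 96.3 and 483 CPM, and Dusp1, a phosphatase that ends kinase signalling, was at 110, 233, 136.5 and 609 CPM. Atf3, a stress-induced repressor, was at 8.003, 26.0, 12.2 and 142 CPM. Replicate 4 was highest for each of these 4 genes and replicate 1 lowest.

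Across the list the median ratio of a member to its own mean was 0.405, 0.884, 0.593 and 1.94. Of the 17 measured genes 16 were highest in replicate 4, beside 29.8% of all measured genes, and it stood apart above for 13, beside 1.03%. Replicate 1 stood apart below for 7, beside 1.57%, and 13 had a CV over 50%, beside 2.91%. Jun, another AP-1 subunit, was at 211, 335, 201 and 939 CPM, and Nr4a1, an orphan nuclear receptor, at 20.5, 156, 68.9 and 164 CPM. Myc, the growth regulator, was steady at 52.5, 48.4, 42.6 and 59.6 CPM, and Ier3 was highest in replicate 1 at 214, 149, 117.5 and 192.5 CPM.

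Heat shock genes were high in replicate 4. Hspa1a and Hspa1b belong to the immediate early list, so its counts above already include them, while Dnajb1 does not belong to it. Hspa1a and Hspa1b, near-identical copies of the inducible HSP70 chaperone whose reads may be split between them, were at 41.3, 101, 65.0 and 652.5 CPM and at 19.96, 50.4, 31.1 and 359 CPM. Dnajb1, the HSP40 partner of that chaperone, was at 81.3, 108, 97.0 and 673 CPM. Without replicate 4 the mean of Hspa1a fell from 215 to 69.1 CPM and that of Dnajb1 from 240 to 95.4 CPM. The library total was also lowest in replicate 4 (33191039 counts), as was the smooth muscle list, and their part in this was not tested.

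The promoters of 3 of these genes are shown because the genes were high together in replicate 4 and their windows hold letters of known factor sites. Each runs from 250 bases before to 50 bases after the gene's start in RefSeq's annotation of build GRCr8, 5′ to 3′ on the gene's strand. Capitals mark CArG boxes, the site of serum response factor, in Egr1, the cAMP response element TGACGTCA in Dusp1, and the core of the heat shock element, GAANNTTC, in Dnajb1, all searched on both strands. Egr1 lies at chr18:26736828-26737127 on the plus strand, Dusp1 at chr10:17184603-17184902 on the plus strand and Dnajb1 at chr19:41431092-41431391 on the minus strand.
Egr1: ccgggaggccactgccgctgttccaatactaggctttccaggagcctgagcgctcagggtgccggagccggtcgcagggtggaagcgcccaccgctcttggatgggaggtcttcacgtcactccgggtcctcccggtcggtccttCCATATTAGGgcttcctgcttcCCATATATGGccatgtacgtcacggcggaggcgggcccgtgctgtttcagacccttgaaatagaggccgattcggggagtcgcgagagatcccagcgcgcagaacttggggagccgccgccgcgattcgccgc
Dusp1: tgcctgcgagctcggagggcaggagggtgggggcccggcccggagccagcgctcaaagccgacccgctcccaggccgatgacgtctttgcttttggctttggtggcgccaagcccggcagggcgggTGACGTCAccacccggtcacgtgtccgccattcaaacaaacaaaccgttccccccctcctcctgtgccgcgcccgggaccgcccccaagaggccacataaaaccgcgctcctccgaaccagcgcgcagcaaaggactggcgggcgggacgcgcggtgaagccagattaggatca
Dnajb1: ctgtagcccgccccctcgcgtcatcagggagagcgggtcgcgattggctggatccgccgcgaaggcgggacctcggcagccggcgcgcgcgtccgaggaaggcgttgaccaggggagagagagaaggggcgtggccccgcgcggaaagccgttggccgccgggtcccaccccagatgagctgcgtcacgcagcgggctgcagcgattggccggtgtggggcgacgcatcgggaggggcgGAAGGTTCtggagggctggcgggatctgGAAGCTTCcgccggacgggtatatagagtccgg

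The boxes of Egr1 begin 105 and 83 bases before the start, the element of Dusp1 begins 124 bases before it, and those of Dnajb1 begin 11 bases before and 17 bases after it. A CArG box was found in 3 of the 12 immediate early genes with a window (Egr1, Egr2 and Zfp36), beside 1.47% of the 21396 windows of genes in the table. The cAMP response element was found in 4 of the 12 (Btg2, Dusp1, Ier2 and Jund), beside 2.19%. The heat shock core was found in 0 of the 12, beside 7.25%. None of 15 smooth muscle windows held a CArG box and 2 held the heat shock core. A match is a description of letters and not of binding, and no match says only that these letters are not in this window.

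Levels of inflammatory genes spanned a wide range, from under 1 CPM for Il6 to a mean of 1086 CPM for C3. Il1b, a cytokine of activated macrophages, was at 9.74, 10.1, 11.6 and 23.9 CPM, Tnf at 3.08, 1.66, 1.92 and 6.98 CPM, and Il6 under 1 CPM in every library. Cxcl1, a chemokine for neutrophils, was at 10.7, 4.65, 2.04 and 33.1 CPM, high in replicate 4 like the immediate early genes. Saa3, an acute phase protein, was at no more than 1.22 CPM, and Nos2 at 1.86, 2.22, 4.24 and 4.15 CPM. C3, the central complement component, was at 1156, 888, 1367 and 934 CPM, Lcn2, an iron-binding antibacterial protein of epithelium, at 177, 225, 277 and 73.8 CPM, and Tlr4, the receptor for lipopolysaccharide, at 42.4, 55.9, 48.9 and 51.6 CPM.

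Interferon-stimulated genes were measured in all libraries but for Ifit1. Mx1, an antiviral GTPase, was at 55.1, 56.4, 49.5 and 37.8 CPM, and Ifit3 at 26.2, 16.5, 22.1 and 17.6 CPM. Irf7, a transcription factor of the interferon response, was at 186, 87.7, 119 and 80.5 CPM, Isg15 at 40.2, 21.4, 20.3 and 19.1 CPM, and Cxcl10, an interferon-induced chemokine, at 16.4, 6.87, 6.73 and 4.98 CPM. Of the 18 measured inflammation and interferon genes 7 were highest in replicate 1, beside 30.2% of all measured genes. All 7 were interferon-stimulated genes, Ifit3, Irf7, Isg15 and Cxcl10 among them, while Mx1 was highest in replicate 2. Replicate 1 stood apart above for 4 of the 18, beside 2.79%, and replicate 4 for 3, beside 1.03%. Ifit1 differed most, at 26.7 CPM in replicate 1 and 0.247, 0.468 and 0.298 CPM in the others. Of the 18 measured inflammation and interferon genes 3 had a CV over 50%, beside 2.91% of all measured genes.

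The lists side by side show that no single order of libraries ran through the tissue. Smooth muscle, pericyte and most endothelial genes were lowest in replicate 4, most neuronal genes lowest in replicate 1, measured red cell and adipocyte genes lowest in replicate 3, and most immediate early genes highest in replicate 4. Fibroblast, Schwann cell, macrophage and steroid receptor genes kept median ratios between 0.793 and 1.23 in every library. So did other lists, among them the dendritic cell, collagen and Hox lists.

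**Figure D5:**
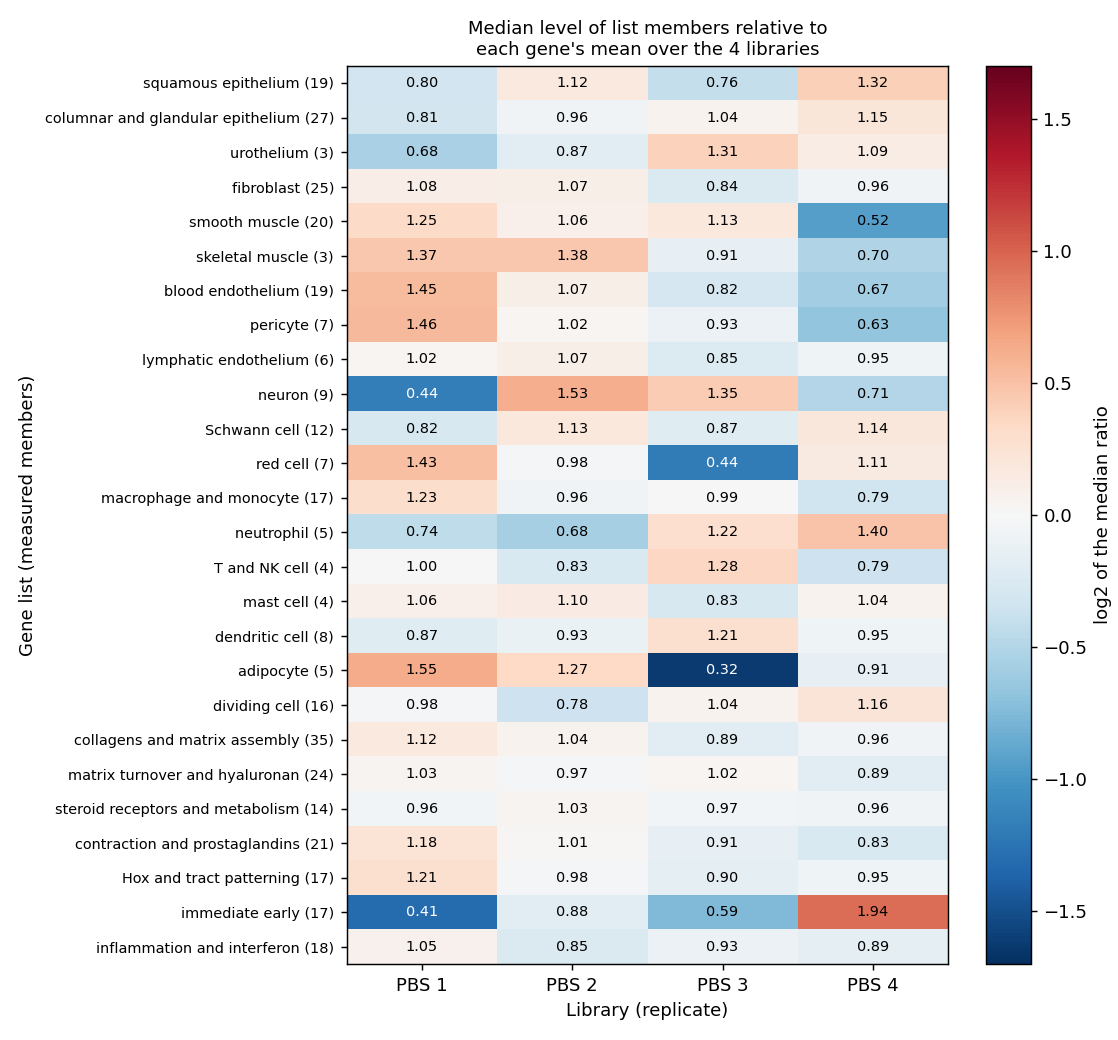
Median level of the measured members of each list in each PBS library, relative to each gene's own mean over the 4 libraries, printed as a ratio and coloured by its log2, with the number of measured members in brackets. The darkest cells are adipocyte (0.323) and red cell (0.439) in replicate 3, immediate early (0.405) and neuron (0.442) in replicate 1, smooth muscle (0.522) in replicate 4 and, in red, immediate early (1.94) in replicate 4.

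The 10 genes at the replicate 1 end of component 1 included secreted proteins, a hormone and transporters. Oxt, the peptide hormone oxytocin, was at 815, 83.8, 146 and 24.0 CPM. Abcb1b, a drug and steroid efflux pump, was at 1445, 341, 494 and 70.0 CPM, Serpina3n, a secreted protease inhibitor, at 257.5, 15.8, 9.26 and 5.19 CPM, and Dmbt1l1, a scavenger-receptor family member, at 1254, 276, 455 and 98.6 CPM. Replicate 1 was above the others by more than 2-fold in each, and replicate 4 was lowest. Guca2b, uroguanylin, was at 181.5, 85.0, 61.0 and 9.43 CPM, and Cyp26a1, which breaks down retinoic acid, at 41.6, 8.45, 12.1 and 3.49 CPM. Wfdc10a, Atp7b, Kif12 and Tmem213 completed the 10 genes at that end, all highest in replicate 1.

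At the replicate 4 end, Egr1, Atf3, Hspa1a, Hspa1b, Fosb and Nr4a1 belonged to the immediate early list, which held 6 of the 10. Itln1, a lectin that binds microbial sugars, was at 117, 155, 334.5 and 1348 CPM. Pla2g5, a secreted phospholipase, was at 1.096, 21.9, 8.35 and 19.7 CPM, lowest in replicate 1. RT1-CE16, a class I gene of the major histocompatibility complex, was the most variable gene of at least 10 CPM at 3.44, 2.40, 3.79 and 179.5 CPM, and Rpl30l2, a ribosomal protein-like gene, was at 19.8, 143.5, 17.3 and 158 CPM. Both have close relatives in the genome with which they may share reads, so their levels are uncertain.

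Gldc and Cdkn1c were also among the 15 most variable genes. Gldc, an enzyme of glycine breakdown, was at 30.5, 1.16, 17.7 and 0.865 CPM, high in replicates 1 and 3 and near 1 CPM in the others. Cdkn1c, an imprinted inhibitor of the cell cycle, was at 39.1, 9.17, 6.06 and 4.45 CPM. Over these 15 genes replicate 1 was highest in 7 and replicate 4 in 8, and neither replicate 2 nor replicate 3 was highest in any.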

How the data were processed

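Cervix RNA was extracted with TRIzol and made into libraries with the VAHTS Universal V6 kit, per the labels' protocols. The deposited values are raw counts per gene symbol, made by the authors with HTSeq, HISAT2 and fastp named in the submitters' processing notes, on build mRatBN7.2. The annotation, the strand setting and the handling of reads that fit several genes are not stated in these sources, so overlapping and antisense genes cannot be told apart from their partners. The table's columns were matched to samples by name, and only the 4 PBS columns were used, apart from 1 alternative scaling over all 8.

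Counts were scaled with TMM in edgeR 4.0.16 (R 4.3.3), and the CV, shares of counts and principal components of log2 CPM (prior count 2, the 500 most variable measured genes) were computed from them in Python 3.11.15. The edgeR model held an intercept alone. No test between groups was made and no p-value is given, so n is 4 libraries throughout, and the spread is that between these libraries. DESeq2 1.42.0 size factors, other scalings, other filters and leaving out each library were tried.

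The members and lists were chosen with earlier results of these data known. The 31 lists hold 497 distinct genes with a row, and 10 of these are in more than 1 list. Genes were named by rule: the 40 with the highest mean CPM, in each cell type list the defining markers, the 4 highest and the most variable measured member, the 15 most and 10 least variable genes, the 10 at each end of component 1 and the members of 7 function lists. The 1.5-fold rule for a library that stands apart was chosen after seeing the data. Casq2, Spdef, Pigr, Sfn, Muc16, Bpifb1, Foxa1, Ivl, Loricrin, Krtdap, Sprr1a, Krt1, Krt10, Cdh19, Dbh, Vip, Slc18a3, Chrna3, Marco, Elane, Camp, Ngp, Ltf, Mpo and Ucp1 are outside the rule and were named after their values were seen. Promoter windows and older symbols came from RefSeq on build GRCr8, matched by symbol, and no coordinates were converted.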

Additional observations from a re-analysis of the deposited data

Results flagged for a closer look

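In a group of 4, a library was marked when its gap to the nearest other library was a larger part of the group's whole range than Dixon's 95% critical value for 4 samples. Chance marks about 1 in 20 groups, and 717 of 13509 measured genes (5.31%) were marked, with replicate 1 apart in 268, replicate 2 in 125, replicate 3 in 112 and replicate 4 in 212. Among the 224 genes named in the report with a mean of at least 1 CPM, 27 were marked. Many of those were named for their wide spread, so the larger share is not evidence of more outliers.

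Replicate 4 was the high library for the stress and immediate early genes Dnajb1 (673 CPM), Hspa1a (652.5 CPM), Hspa1b (359 CPM), Fos (292 CPM) and Atf3 (142 CPM). It was also high for RT1-CE16 (179.5 CPM), Sfn (288 CPM), Il1b (23.9 CPM) and Rab1a (391 CPM). For Rab1a the whole range was 384 to 391 CPM, so the mark there is of a small difference. The same library was the low one for Des (652 CPM) and Flna (1042 CPM) of the smooth muscle list.

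Replicate 1 was the high library for Spp1 (6376 CPM), Oxt (815 CPM), Serpina3n (257.5 CPM), Cdkn1c (39.1 CPM) and Atp7b (36.4 CPM). It was high for the interferon-stimulated genes Isg15 (40.2 CPM), Ifit1 (26.7 CPM) and Cxcl10 (16.4 CPM). Cd163 (53.0 CPM), Ptger2 (5.33 CPM) and the serosal markers Upk3b (5.58 CPM) and Lrrn4 (3.90 CPM) were high there as well, and Epcam (454 CPM) was low. Of the 31 lists, 2 were marked by their share of counts, both with replicate 1 highest: steroid receptors and metabolism at 0.177% and Hox and tract patterning at 0.0415%.

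Replicate 3 was the high library for Tnfaip6 (954 CPM) and Ptgfr (5.12 CPM) and the low one for Col1a1 (4394 CPM). No named gene was marked with replicate 2 apart.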

How the results depend on the processing

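The number of measured genes with a CV over 50% was 393. It was 395 with DESeq2 size factors, 395 with upper-quartile factors, 383 with library totals alone and 397 with TMM over all 8 libraries. The filter on low levels moved it far more: it was 795 over genes with at least 10 counts in all 4 libraries, 6611 with no filter and 121 over genes with at least 10 CPM in all, since these settings change how many genes are counted. Leaving out each library in turn gave 309 to 544, lowest without replicate 1. The common biological coefficient of variation was 20.6% and ran from 18.6% to 22.4% when each library was left out. The share of the 10 most abundant genes was 9.22% to 9.43% when each library was left out, and the share of the top 10 nuclear genes was 6.43% without mitochondrial genome transcripts. Component 1 held 53.4% of the variance over all measured genes, 55.4% with DESeq2 size factors and 55.0% with a prior count of 0.5. All 155 alternative values of the 31 list shares and all 2168 computed for the means of named genes lay within 1 SD of the value given. For leaving out 1 library of 4 that is so by construction, and it is no sign of stability. Of 224 named genes averaging 1 CPM or more, the mean of 41 moved by over 1.5 times when 1 library was left out, 22 of them without replicate 1 and 16 without replicate 4, which is why single values are printed. Shares per transcript length were not run, because no lengths were used. No paired analysis was possible because the report compares no groups. Depth limited genes under the floor of 3 counts, and these values cover counting error only.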

Other observations

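A few genes were well detected in some libraries and at or under 3 counts in another. Of all genes in the table, 16 reached 5 CPM in at least 1 library and the floor in at least 1 other, 12 of them with a gene name rather than a placeholder symbol. In 10 of the 12 the library at the floor was replicate 1. Among the 10, besides the neuronal list members Nefm (0.0255, 23.9, 22.2 and 10.9 CPM), Vip, Dbh, Slc18a3 and Chrna3, 4 genes of neurons or secretory vesicles that no list held stood out. Htr3a, a serotonin-gated channel, was at 0, 7.76, 8.10 and 1.701 CPM, Chgb, a granin of secretory vesicles, at 0, 3.58, 5.89 and 3.88 CPM, Syn2, a synaptic vesicle protein, at 0.0510, 5.41, 5.86 and 1.999 CPM, and Syt4, a vesicle calcium sensor, at 0.0255, 6.28, 6.45 and 6.15 CPM. These genes were picked for their spread, so their likeness to the neuronal list is a description and not a test.

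Replicate 4 lacked Wfdc16 (10.04, 2.45, 2.96 and 0.0597 CPM) and Serpinb12 (10.9, 0.0989, 1.92 and 0.0597 CPM), members of secreted and epithelial protease inhibitor families, both highest in replicate 1. The tenth gene at the floor in replicate 1, Iqcn, was at 0.0765, 0.569, 0.0985 and 5.31 CPM, detected mainly in replicate 4. In the Schwann cell list, S100b, a calcium-binding protein that fat cells also make, was at 39.8, 29.0, 9.78 and 24.2 CPM, which is the library order of the adipocyte list's median ratios and not that of Mbp. Lep, the adipocyte hormone leptin, was at 7.42, 5.66, 0.197 and 2.63 CPM, again lowest in replicate 3.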
